A study of Homo sapiens with 16 samples.

Results

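The 44 genes described here encode the working parts of the lysosome and of autophagy, and they were followed across 4 U2OS cell lines with and without ultraviolet light. They were taken by gene symbol from 8 roles and matched to 1 Ensembl identifier each among the 60666 genes of every deposited table by a rule that uses no measured value, though the genes were picked with earlier results of these data known. All 44 passed the filter on low counts and stood among the 22597 genes tested. U2OS is an established human line from a bone tumour, which the labels give as a sarcoma line. The tested lines carried a stable short hairpin RNA (shRNA) against PIP4K2A, against PIP4K2B, or against both (called the double knockdown here), and the comparison line carried the plko.puro vector, described in the labels as wild type. All 4 lines were grown with puromycin. Each was collected 6 h after UV-C light of 30 J/m2 or left untreated as the control, with 2 libraries in each of the 8 groups. Ribosomal RNA was depleted from total RNA before directional libraries were made. The labels name 1 line per hairpin and do not say whether separate cultures lie behind the libraries of a group, and p-values measure only the spread between these libraries, which may be technical.

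Lysosomes are acidic organelles in which hydrolases break down proteins, lipids and sugars, and autophagy wraps cytoplasm in a double membrane and delivers it to them. TFEB, TFE3 and MITF are related transcription factors that switch on many lysosome and autophagy genes, largely through a promoter motif with the letters CACGTG at its core. They are held in the cytoplasm when the kinase complex mTORC1 is active at the lysosome surface, so their own RNA is only a part of their control. PIP4K2A and PIP4K2B are lipid kinases that use a rare signalling phosphoinositide as substrate.

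Of the 16 libraries, 15 held 28002912 to 39873512 counts each. The library labelled vector untreated replicate 1 held 1278298, with 14.6% of its counts on mitochondrial genes, against 2.20 to 3.43% in the other 15, and GAPDH at 771 CPM (counts scaled to a library total of 1e6) against 4790 to 8545. It was set aside, which leaves 1 untreated vector library, assumed to vary like the other groups. Values with all 16 libraries are given for the counts of called genes and for part of the single genes. Levels below are scaled CPM, which are CPM after TMM composition scaling. PIP4K2A measured 15.8 and 13.9 scaled CPM in its untreated knockdown and 20.3 and 20.5 in the untreated double knockdown, against 57.0 in untreated vector cells. PIP4K2B measured 24.6 and 21.9 in its untreated knockdown and 15.3 and 17.3 in the untreated double knockdown, against 97.0 in untreated vector cells. Of 9 osteoblast markers, 4 (SP7, COL1A2, BGLAP and IBSP) lay under 1 CPM in all 15 libraries. The summed level of the 9 was 2743 to 3254 CPM in UV-treated and 2930 to 3306 in untreated PIP4K2A knockdown cells, and 2631 to 2757 after UV and 2391 to 2430 untreated in the PIP4K2B knockdown. It was 3699.9 to 3709 after UV and 3402 to 3686 untreated in the double knockdown, against 3877 and 3958 CPM in UV-treated and 4606 CPM in untreated vector cells, so that all knockdown libraries lay below all vector libraries. Of 10 macrophage and blood markers 7 lay under 1 CPM in all 15 libraries, and the summed level of that list was 1.45 to 3.92 CPM. Epithelial markers summed to 564 to 945 CPM in UV-treated and 408 to 502 CPM in untreated knockdown cells, against 331 and 332 CPM in UV-treated and 275 CPM in untreated vector cells, with KRT19, ESRP1 and GRHL2 under 1 CPM throughout; the part of these lists in the results was not tested. In such bulk samples, fewer cells of a type and less RNA per cell cannot be told apart.

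The promoters of 6 genes are shown because they carry the motifs of the TFEB family and belong to genes whose RNA the results below turn on. They come from RefSeq on GRCh38.p14, run 5′ to 3′ on the strand of the gene, and cover 250 bases before to 50 after the start site. Capitals mark CACGTG, which reads the same on both strands, except in GPNMB, where they mark CACATGA, the reverse of the MITF motif TCATGTG. The regions are chr13:113296989-113297288 (plus strand) for LAMP1, chr19:7522374-7522673 (plus) for MCOLN1 and chr17:80101331-80101630 (plus) for GAA. Those of CTSA, NEU1 and GPNMB are chr20:45891085-45891384 (plus), chr6:31862772-31863071 (minus) and chr7:23246525-23246824 (plus).
LAMP1: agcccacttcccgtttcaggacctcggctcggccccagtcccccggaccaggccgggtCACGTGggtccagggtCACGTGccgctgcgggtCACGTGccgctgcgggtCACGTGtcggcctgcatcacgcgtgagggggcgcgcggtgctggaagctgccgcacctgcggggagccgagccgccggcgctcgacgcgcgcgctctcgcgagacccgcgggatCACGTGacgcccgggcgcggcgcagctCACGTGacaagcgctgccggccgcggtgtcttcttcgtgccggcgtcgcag
MCOLN1: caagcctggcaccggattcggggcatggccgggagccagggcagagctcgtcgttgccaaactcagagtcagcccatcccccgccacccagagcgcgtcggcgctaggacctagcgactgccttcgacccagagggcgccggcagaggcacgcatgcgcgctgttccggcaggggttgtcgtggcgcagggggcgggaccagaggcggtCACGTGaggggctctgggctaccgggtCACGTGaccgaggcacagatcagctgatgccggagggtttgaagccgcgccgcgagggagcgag
GAA: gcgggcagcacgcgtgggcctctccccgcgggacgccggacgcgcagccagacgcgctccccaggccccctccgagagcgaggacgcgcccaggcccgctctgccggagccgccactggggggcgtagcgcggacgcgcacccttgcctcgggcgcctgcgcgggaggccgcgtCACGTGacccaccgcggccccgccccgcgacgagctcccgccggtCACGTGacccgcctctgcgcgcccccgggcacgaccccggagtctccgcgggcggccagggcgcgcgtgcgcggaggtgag
CTSA: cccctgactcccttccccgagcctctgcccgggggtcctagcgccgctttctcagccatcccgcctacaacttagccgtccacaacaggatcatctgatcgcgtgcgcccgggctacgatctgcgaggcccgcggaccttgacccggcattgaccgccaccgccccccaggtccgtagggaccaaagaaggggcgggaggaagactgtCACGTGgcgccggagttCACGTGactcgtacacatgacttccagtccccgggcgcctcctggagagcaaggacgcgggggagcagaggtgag
NEU1: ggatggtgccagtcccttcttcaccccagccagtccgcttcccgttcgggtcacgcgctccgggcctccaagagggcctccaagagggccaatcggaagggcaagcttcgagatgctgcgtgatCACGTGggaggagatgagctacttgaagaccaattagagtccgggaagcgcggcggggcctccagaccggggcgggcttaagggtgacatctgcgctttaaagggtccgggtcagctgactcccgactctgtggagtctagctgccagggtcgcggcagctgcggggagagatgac
GPNMB: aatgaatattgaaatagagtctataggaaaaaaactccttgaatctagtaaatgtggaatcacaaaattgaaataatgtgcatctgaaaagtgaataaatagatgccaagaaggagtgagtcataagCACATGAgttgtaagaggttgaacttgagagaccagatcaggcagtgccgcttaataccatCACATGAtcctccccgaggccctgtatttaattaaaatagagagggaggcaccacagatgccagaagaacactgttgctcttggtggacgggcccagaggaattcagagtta

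LAMP1, a glycoprotein that lines the lysosomal membrane, held 6 CACGTG motifs. MCOLN1, a lysosomal calcium channel, GAA, which breaks down glycogen, and CTSA, the protective protein of the sialidase complex, held 2 each, and NEU1, the sialidase itself, held 1. Promoters were found for 35 of the 44 genes. CACGTG stood in 8 of these 35 (22.9%; the other 3 were ATG14, ATP6V0D1 and CTSD), against 8.78% of 27303 genes in the RefSeq table. The longer TCACGTGA, which contains CACGTG, stood in 5 (ATP6V0D1, CTSA, GAA, LAMP1 and MCOLN1; 14.3%), against 1.18% of all genes. TCATGTG was found in CTSA, GPNMB and WIPI2 (8.57%), against 3.59% of all genes. A match describes the letters of the window and is not a measured binding site. ATP6V1C1, PSAP, ATP6V1A, LAMP2, UVRAG, CTSB, ATP6V1H, HEXA and ATP6V1B2 had no entry.

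By length-corrected abundance, the most abundant of the 44 were GABARAP, a small protein that is coupled to autophagosome membranes, at a median of 256 TPM (length-corrected counts scaled to a common total) over the 15 libraries, and PSAP, the precursor of the saposins that help digest sphingolipids, at 220 TPM. The cargo receptor SQSTM1 followed at 115 TPM, LAMP1 at 113 and the cholesterol carrier NPC2 at 101. Their ranges overlapped: SQSTM1 ran from 57.6 to 183 TPM and LAMP1 from 86.9 to 136. TFEB was the lowest at 1.15 TPM (0.45 to 2.72), with the kinase ULK2 at 1.29 and ATG14 at 1.87. TFE3 stood at 30.7 TPM and MITF at 5.39, so that the lowest TFE3 value, 19.8 TPM, was above the highest TFEB and MITF values of 2.72 and 12.2 TPM.

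The UV comparison asks what 6 h after UV-C does to these RNAs in each line. Of the 11 hydrolases, 9, 8 and 10 rose in the PIP4K2A, PIP4K2B and double knockdowns and 3 in vector cells, and MAP1LC3B, GABARAP and GABARAPL2, which encode ATG8 proteins that are coupled to autophagosome membranes, rose in all 4 lines. These rises were relative to the median gene, and none was called relative to ribosomal protein genes. TFEB, the cholesterol exporter NPC1 and 3 autophagy genes (ATG14, UVRAG and ATG16L1) fell in all 4 lines. UV raised 18 of the 44 genes and lowered 6 in the PIP4K2A knockdown, raised 23 and lowered 6 in the PIP4K2B knockdown, and did the same in the double knockdown, against 9 raised and 6 lowered in vector cells, by edgeR's quasi-likelihood test at a Benjamini-Hochberg adjusted p under 0.05. Of all genes tested, 30.6, 32.9 and 35.2% were called in either direction in the PIP4K2A, PIP4K2B and double knockdowns, against 18.5% in vector cells. Rises made up 40.9, 52.3 and 52.3% of the 44 genes in the 3 knockdown lines, where 16.6, 17.5 and 19.1% of all genes rose, against 20.5% of the 44 and 8.67% of all genes in vector cells. Falls made up 13.6% of the 44 in each line, where 14, 15.4 and 16.1% of all genes fell in the knockdown lines and 9.82% in vector cells. The median log2 fold change of the 44 was 0.27, 0.37 and 0.40 in the knockdown lines and 0.21 in vector cells, with all-gene medians from 0.00 to 0.02.

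These rises are relative to the bulk of genes. When libraries were scaled instead to 79 cytosolic ribosomal protein genes, the median of all genes fell to -0.78, -0.90 and -0.85 in the UV responses of the PIP4K2A, PIP4K2B and double knockdowns and to -0.70 in that of vector cells. No member was then called higher, and 34, 38 and 34 were called lower in the knockdown lines and 29 in vector cells. Of all 22597 genes, 196, 127 and 136 were then called higher and 14399, 15180 and 14725 lower in the knockdown lines. In vector cells 151 were called higher and 10876 lower, so that few genes of any kind were called higher. A change of scaling moves the fold changes of all genes in a comparison by about the same amount. The distance of the 44 genes from the all-gene median is therefore nearly fixed in advance and is no check on the scaling. With ribosomal protein scaling the 44 lay above that median by 0.26, 0.37 and 0.37 in the knockdown lines and 0.18 in vector cells. The same scaling called 0 of 145 other genes of the pathway higher in any line. UV rises of the 44 and of these 145 genes are therefore given below as rises relative to the median gene.

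**Figure D1:**
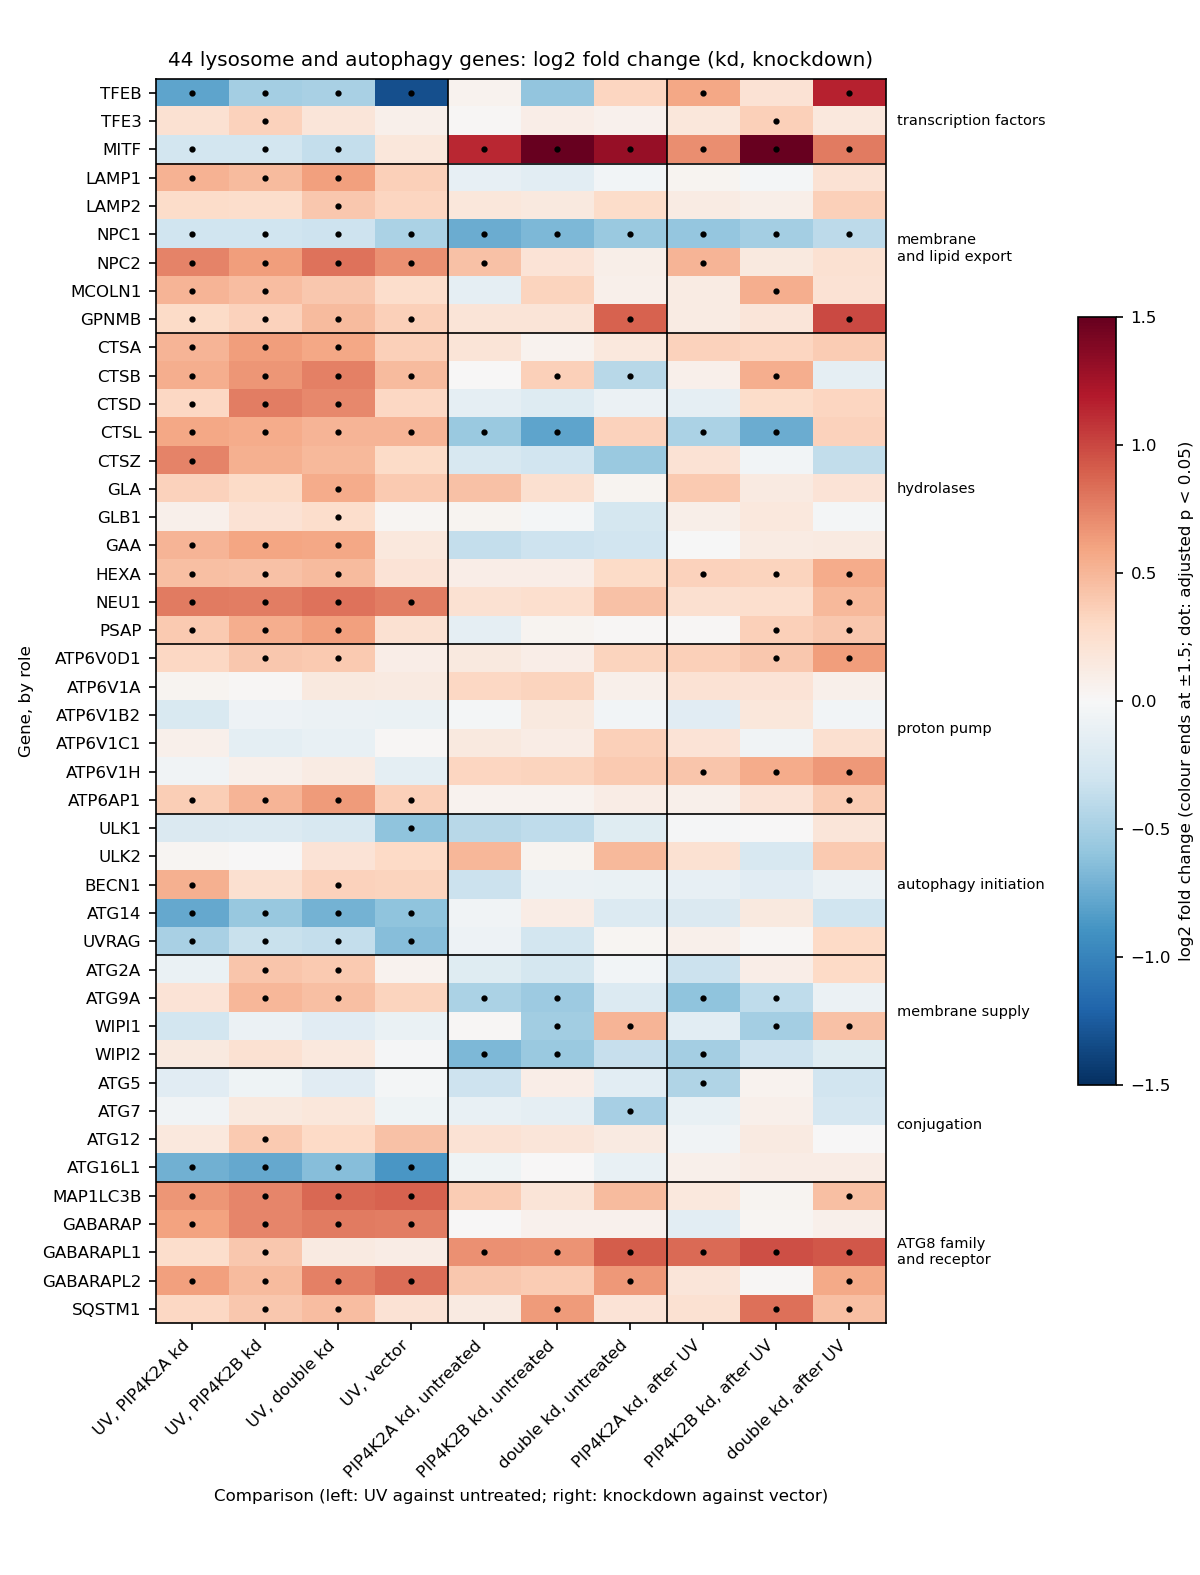
Log2 fold change of each of the 44 genes (rows, by role) in 10 comparisons (columns): UV against untreated in the 4 lines, then each knockdown (kd) against vector, untreated and after UV. Red is higher and blue is lower in the UV-treated or knockdown cells relative to the median gene, and a dot marks an adjusted p under 0.05; 9 genes carry a dot in red in all 4 UV columns and 5 in blue, and no UV column holds a red dot with ribosomal protein scaling.

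Counts of called genes moved with the libraries used. With only the 2 groups compared in the fit, 2 genes were higher and 2 lower after UV in the PIP4K2A knockdown, a count of 4 in place of 24, against 18 higher and 6 lower in vector cells, a count of 24 in place of 15, so that the order of these lines was turned round. Each library was left out in turn, except that comparisons with untreated vector cells cannot be made without the 1 library of that group. For those comparisons, including the UV response of vector cells, calls said below to hold without any single library were not tested without that one. The vector count of 15 became 23 without UV-treated PIP4K2A knockdown replicate 1. The PIP4K2B count of 29 became 18 and 19 without untreated replicates 1 and 2 of that line and 17 and 18 without UV-treated replicates 1 and 2. The double knockdown count of 29 became 18 without untreated replicate 1 or without either UV-treated replicate. With all 16 libraries, only 3 genes were called in vector cells and 0 in each knockdown line, where 41.9% variation between replicates was estimated, against 11.3% over 15 libraries.

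**Figure D2:**
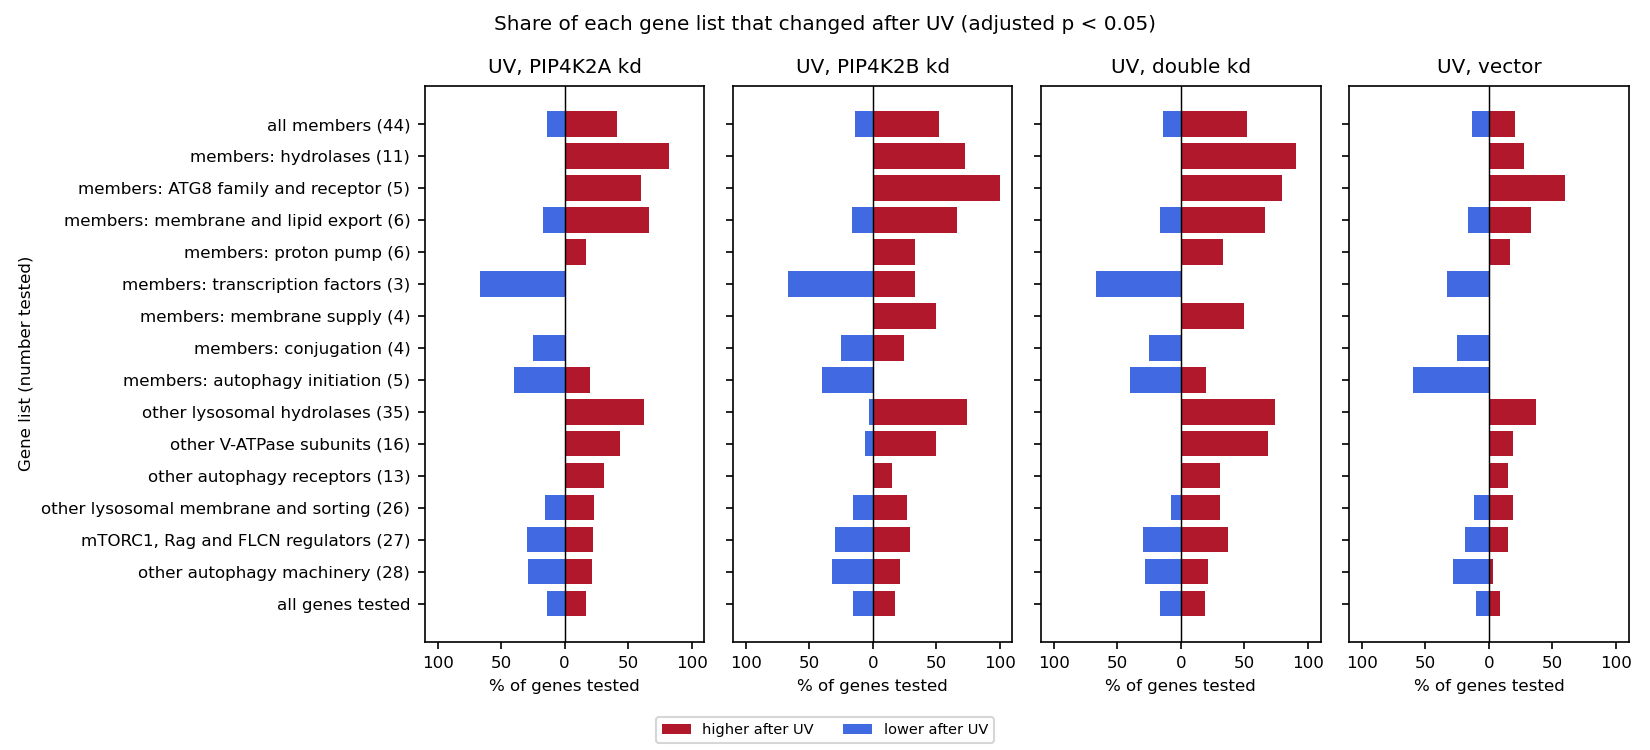
Percent of the genes tested in each list that were called higher (red, to the right) or lower (blue, to the left) after UV in the 3 knockdown lines and vector cells, relative to the median gene. Hydrolases and ATG8 genes extend to the right of the bar for all genes, which reaches 16.6 to 19.1% in knockdown cells and 8.67% in vector cells, while initiation genes extend to the left in every line and, through BECN1, 20% to the right in the PIP4K2A and double knockdowns; with ribosomal protein scaling no member extends to the right.

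Of the 3 transcription factors, TFEB was called lower after UV in all 4 lines and MITF in the 3 knockdowns, and TFE3 was called higher in the PIP4K2B knockdown. TFEB (chr6:41683978-41736259) measured 3.62 and 3.21 scaled CPM in UV-treated and 5.21 and 6.59 in untreated PIP4K2A knockdown cells. It measured 3.12 and 2.17 after UV and 3.73 and 3.83 untreated in the PIP4K2B knockdown, and 5.06 and 5.11 after UV and 6.93 and 7.28 untreated in the double knockdown. Vector cells had 2.33 and 2.25 after UV and 5.70 untreated. UV-treated and untreated libraries did not overlap in any line, and vector cells after UV held, beside 1 PIP4K2B knockdown library, the least TFEB RNA. The UV fold change was -0.79 ± 0.17 (log2, SE) in the PIP4K2A knockdown (edgeR adjusted p = 0.00451) and -1.31 ± 0.21 in vector cells (edgeR adjusted p = 0.00114), and both calls held without any single library. It was -0.51 ± 0.18 in the PIP4K2B knockdown (edgeR adjusted p = 0.0485) and -0.48 ± 0.17 in the double knockdown (edgeR adjusted p = 0.0401), and DESeq2 called neither. The PIP4K2B call was lost in 9 of 15 fits that each left out 1 library: either untreated replicate or UV-treated replicate 2 of that line, any of the 4 double knockdown libraries, or either UV-treated vector library, with adjusted p up to 0.335. The double knockdown call was lost in 7 of 15: any of its own 4 libraries, either UV-treated vector library or untreated PIP4K2B replicate 1, with adjusted p up to 0.149. TFEB counts ran from 61 to 237 per library.

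For TFE3 the UV fold change was 0.23 ± 0.12 in the PIP4K2A, 0.34 ± 0.12 in the PIP4K2B and 0.18 ± 0.12 in the double knockdown, and 0.08 ± 0.14 in vector cells. Only the PIP4K2B value was called (edgeR adjusted p = 0.0366), and it was lost without any 1 of the 4 libraries of that line, either UV-treated double knockdown library or UV-treated vector replicate 1; with ribosomal protein scaling TFE3 was called lower in every line, at -0.58, -0.56 and -0.69 in the PIP4K2A, PIP4K2B and double knockdowns and -0.64 in vector cells (edgeR adjusted p = 0.00011, 0.000105, 2.38e-05 and 0.000284). MITF (chr3:69739435-69968337) fell after UV by 0.27 ± 0.10, 0.28 ± 0.09 and 0.36 ± 0.10 (log2, SE) in the PIP4K2A, PIP4K2B and double knockdowns. The double knockdown call (edgeR adjusted p = 0.0117) was lost without its untreated replicate 1 or either UV-treated replicate. The calls in the PIP4K2A and PIP4K2B knockdowns (edgeR adjusted p = 0.0478 and 0.0389) were lost in 8 and 9 of 15 such fits, with adjusted p up to 0.146 and 0.266. The first was lost without either untreated PIP4K2A replicate, UV-treated PIP4K2A replicate 1, untreated PIP4K2B replicate 1, untreated double knockdown replicate 2, either UV-treated double knockdown replicate or UV-treated vector replicate 2. The second was lost without untreated PIP4K2B replicate 1, either UV-treated PIP4K2B replicate, any double knockdown library or either UV-treated vector library. In vector cells MITF measured 11.3 and 11.2 scaled CPM after UV and 10.0 untreated, a change of 0.17 ± 0.13 that was not called and that was -0.56 with ribosomal protein scaling.

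**Figure D3:**
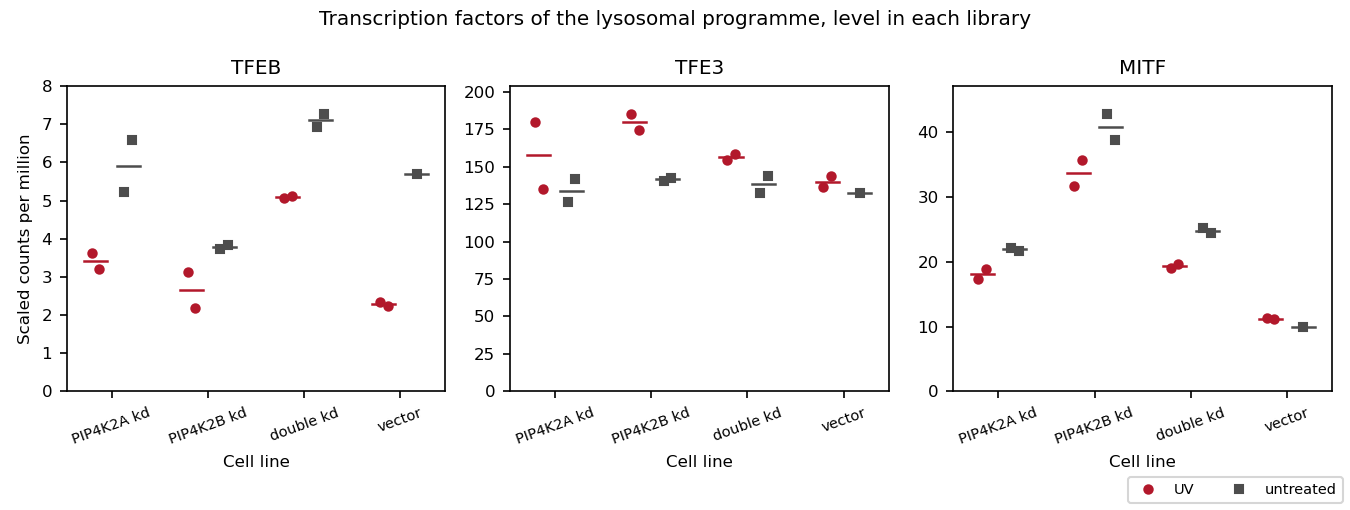
Scaled CPM of TFEB, TFE3 and MITF in each of 15 libraries, by cell line (horizontal axis; kd, knockdown), with UV-treated libraries as circles left of untreated ones as squares and bars at the group means. TFEB lies lower after UV in every line, and MITF lies higher in all knockdown libraries than in the 3 vector libraries.

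Among the 11 hydrolases, which digest the contents of the lysosome, UV raised 9, 8 and 10 in the PIP4K2A, PIP4K2B and double knockdowns and 3 in vector cells, and lowered none; with ribosomal protein scaling none was called higher. NEU1 (chr6:31857659-31862906), the sialidase, measured 97.1 and 77.7 scaled CPM in UV-treated and 48.4 and 53.4 in untreated PIP4K2A knockdown cells. Levels were 88.9 and 86.6 after UV against 48.1 and 55.3 untreated in the PIP4K2B knockdown, and 105 and 103 against 59.7 and 58.4 in the double knockdown. Vector cells had 68.6 and 79.3 after UV and 43.5 untreated. The lines moved alike, with UV-treated libraries above untreated ones everywhere. The log2 fold changes were 0.78 ± 0.11, 0.76 ± 0.11 and 0.82 ± 0.11 in the PIP4K2A, PIP4K2B and double knockdowns and 0.76 ± 0.15 in vector cells (edgeR adjusted p = 0.00036, 0.000359, 0.00019 and 0.00338), and each call held without any single library.

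The cathepsins CTSB and CTSL, proteases of the lysosome, also rose in all 4 lines, CTSB by 0.54, 0.67 and 0.75 in the knockdowns and 0.47 in vector cells, and CTSL by 0.59, 0.55 and 0.51 in the knockdowns and 0.51 in vector cells. CTSD, the main aspartic protease, measured 223 and 212 scaled CPM after UV against 119 and 136 untreated in the PIP4K2B knockdown (0.77 ± 0.11 log2, edgeR adjusted p = 0.000263), and 169 and 190 after UV against 145 untreated in vector cells (0.31 ± 0.14, edgeR adjusted p = 0.142). CTSA, CTSD, GAA, HEXA, PSAP and the membrane protein LAMP1 were called in all 3 knockdown lines and not in vector cells. Their vector fold changes were all positive, from 0.15 ± 0.18 for GAA to 0.36 ± 0.12 for LAMP1, and the difference between lines is tested below. CTSZ, a carboxypeptidase, had 219 and 113 scaled CPM in the UV-treated PIP4K2A replicates, against 92.5 and 105 untreated; its call there (0.75 ± 0.21, edgeR adjusted p = 0.0174) was lost without UV-treated replicate 1 or either untreated replicate. GLA and GLB1, both galactosidases, were called in the double knockdown, at 0.55 ± 0.13 and 0.26 ± 0.10, and in no other line, where they ran from 0.28 to 0.39 and from 0.03 to 0.22.

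Of 6 genes for the lysosomal membrane and lipid export, UV raised 4 in each knockdown line and 2 in vector cells and lowered NPC1 in all 4. NPC2, which hands cholesterol to NPC1, measured 162 and 165 scaled CPM in UV-treated against 100.2 and 95.2 in untreated PIP4K2A knockdown cells, 127 and 129 against 87.8 and 78.2 in the PIP4K2B knockdown, and 136 and 133 against 72.9 and 80.4 in the double knockdown. In vector cells it measured 118 and 113 after UV and 71.8 untreated. Its log2 fold changes were 0.74 ± 0.08, 0.62 ± 0.08 and 0.82 ± 0.08 in the knockdown lines and 0.68 ± 0.10 in vector cells (edgeR adjusted p = 5.62e-05, 0.000161, 1.98e-05 and 0.000822). NPC1 (chr18:23506184-23586898), which exports that cholesterol, moved the other way, with 40.8 and 43.9 scaled CPM after UV against 50.5 and 53.7 untreated in the PIP4K2A knockdown, and 61.6 and 65.0 after UV against 87.6 untreated in vector cells. It fell by 0.30 ± 0.08, 0.30 ± 0.08 and 0.31 ± 0.08 in the knockdowns and by 0.47 ± 0.10 in vector cells; the PIP4K2B call was lost without its UV-treated replicate 1 or untreated replicate 2. NPC2 and NPC1 changed in opposite directions relative to the median gene, while with ribosomal protein scaling NPC2 lay at -0.06, -0.28 and -0.06 in the PIP4K2A, PIP4K2B and double knockdowns and -0.04 in vector cells, and the PIP4K2B value was called lower (edgeR adjusted p = 0.0481). GPNMB, a glycoprotein under MITF family control, rose by 0.29, 0.35 and 0.47 in the knockdowns and 0.36 in vector cells, MCOLN1 rose in the PIP4K2A and PIP4K2B knockdowns by 0.51 ± 0.17 and 0.47 ± 0.16, and the membrane protein LAMP2 rose in the double knockdown by 0.41 ± 0.13, each relative to the median gene only.

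Of 6 genes of the proton pump that acidifies the lysosome, UV raised 1, 2 and 2 in the PIP4K2A, PIP4K2B and double knockdowns and 1 in vector cells, and lowered none. ATP6AP1, an accessory subunit, rose in all 4 lines, by 0.37, 0.52 and 0.64 in the knockdowns and 0.36 in vector cells, and ATP6V0D1, a subunit of the membrane sector, rose in the PIP4K2B and double knockdowns by 0.40 ± 0.13 each; neither was called higher with ribosomal protein scaling. ATP6V1A, ATP6V1B2, ATP6V1C1 and ATP6V1H, subunits of the cytosolic sector, were called in no line relative to the median gene, with fold changes from -0.23 to 0.14. With ribosomal protein scaling ATP6V1B2, ATP6V1C1 and ATP6V1H were called lower in every line and ATP6V1A in each knockdown.

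Of 5 genes of autophagy initiation, ATG14 and UVRAG fell in every line. ATG14 (chr14:55366392-55411858), which directs the lipid kinase complex of BECN1 to forming autophagosomes, measured 14.8 and 14.4 scaled CPM after UV against 25.9 and 23.8 untreated in the PIP4K2A knockdown. It measured 19.1 and 18.3 against 29 and 26.6 in the PIP4K2B knockdown, and 13.1 and 14.5 against 21.5 and 23.4 in the double knockdown. Vector cells had 18.3 and 15.6 after UV and 25.8 untreated. Groups did not overlap, and the log2 fold changes were -0.77 ± 0.11, -0.57 ± 0.11 and -0.71 ± 0.11 in the knockdowns and -0.61 ± 0.13 in vector cells (edgeR adjusted p = 0.000294, 0.00159, 0.000421 and 0.00693). The vector call was lost without UV-treated vector replicate 2, at an adjusted p of 0.0532. UVRAG, the partner of BECN1 in another such complex, fell by 0.48 ± 0.10, 0.34 ± 0.10 and 0.36 ± 0.10 in the knockdowns and by 0.63 ± 0.12 in vector cells; the PIP4K2B and double knockdown calls were lost without any 1 of the 4 libraries of the same line. ULK1, the kinase that starts autophagy, was called in vector cells, where it fell by 0.60 ± 0.14. It was called in no knockdown, where it ran from -0.24 to -0.21. The vector call was lost without UV-treated vector replicate 1, and no difference of UV responses was called for ULK1. With ribosomal protein scaling it was called lower in every line, at -1.02, -1.12 and -1.12 in the knockdowns and -1.33 in vector cells. BECN1 itself rose by 0.53 ± 0.11 in the PIP4K2A and 0.34 ± 0.11 in the double knockdown, but not relative to ribosomal protein genes. ULK2 was called in no line relative to the median gene, and with ribosomal protein scaling it was called lower in each knockdown.

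Of the genes that supply membrane, ATG9A, a lipid scramblase, rose by 0.50 ± 0.10 and 0.45 ± 0.10 and ATG2A, a lipid transfer protein, by 0.42 ± 0.13 and 0.39 ± 0.13 in the PIP4K2B and double knockdowns relative to the median gene but not to ribosomal protein genes. The phosphoinositide readers WIPI1 and WIPI2 were called in no UV response relative to the median gene. With ribosomal protein scaling both were called lower in every line, WIPI1 at -1.07 to -0.82 and WIPI2 at -0.74 to -0.66. In the conjugation machinery, ATG16L1 (chr2:233210051-233295674), which sets where ATG8 proteins are coupled to membrane, was the gene that fell in all lines. It measured 13.4 and 12.6 scaled CPM after UV against 20.7 and 22.3 untreated in the PIP4K2A knockdown, 13.3 and 13.3 against 23.6 and 21.6 in the PIP4K2B knockdown, and 12.3 and 14.4 against 20.7 and 20.9 in the double knockdown. Vector cells had 12.7 and 12 after UV and 22.6 untreated. The fold changes of -0.73, -0.76 and -0.64 (SE 0.11 each) in the knockdowns and -0.87 ± 0.13 in vector cells were all called (edgeR adjusted p = 0.000334, 0.000214, 0.000579 and 0.000563), and each call held without any single library. ATG5 and ATG7 were called in no line relative to the median gene, but both were called lower in every line with ribosomal protein scaling. ATG12, a ubiquitin-like protein that is joined to ATG5, was called higher in the PIP4K2B knockdown at 0.40 ± 0.14 (edgeR adjusted p = 0.0494). It ran from 0.16 to 0.44 in the other lines, and with ribosomal protein scaling it was called lower in each knockdown.

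Of the 4 genes of the ATG8 family, whose proteins are coupled to autophagosomes and bind cargo receptors, MAP1LC3B, GABARAP and GABARAPL2 rose in all 4 lines relative to the median gene, and GABARAPL1 rose in the PIP4K2B knockdown; none was called higher relative to ribosomal protein genes. MAP1LC3B, the best known member, measured 164 and 231 scaled CPM after UV against 133 and 118 untreated in the PIP4K2A knockdown, 178 and 187 against 106 and 114 in the PIP4K2B knockdown, and 245 and 240.4 against 143 and 125 in the double knockdown. In vector cells it measured 169 and 187 after UV and 96.1 untreated. The fold changes were 0.66 ± 0.14, 0.73 ± 0.14 and 0.86 ± 0.14 in the knockdowns and 0.89 ± 0.17 in vector cells (edgeR adjusted p = 0.00318, 0.0015, 0.000453 and 0.00396). GABARAP rose by 0.60, 0.73 and 0.78 in the knockdowns and 0.76 in vector cells, and GABARAPL2 by 0.62, 0.48 and 0.76 in the knockdowns and 0.84 in vector cells. The MAP1LC3B calls held without any single library. SQSTM1, the receptor that carries ubiquitinated cargo, rose by 0.41 ± 0.13 and 0.46 ± 0.13 in the PIP4K2B and double knockdowns and measured 0.31 ± 0.13 in the PIP4K2A knockdown and 0.22 ± 0.17 in vector cells, in neither of which it was called. GABARAPL1 was called after UV in the PIP4K2B knockdown, at 0.40 ± 0.12, and ran from 0.11 to 0.27 in the other lines.

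The fold changes of the 44 genes after UV were alike between lines, with Pearson correlations of 0.85 to 0.89 between each knockdown and vector cells and 0.92 to 0.96 between knockdowns; over all 22597 genes the same correlations were 0.47 to 0.53 and 0.53 to 0.61. These are descriptions across genes, which are not independent replicates, and the points share the same genes, gene lengths and counting. Of the 15314 protein-coding genes tested, 11072 reached the lowest mean level of a member (4.41 scaled CPM). The correlations over all genes were therefore not matched to the members by level, and the part of level in the difference was not tested. Of the 44, 9 rose in all 4 lines (ATP6AP1, CTSB, CTSL, GABARAP, GABARAPL2, GPNMB, MAP1LC3B, NEU1 and NPC2, none called higher with ribosomal protein scaling) and 5 fell in all 4 (ATG14, ATG16L1, NPC1, TFEB and UVRAG). No gene was called in opposite directions in 2 lines, and 9 were called in none (ATG5, ATG7, ATP6V1A, ATP6V1B2, ATP6V1C1, ATP6V1H, ULK2, WIPI1 and WIPI2). With ribosomal protein scaling these 9 were called lower in each knockdown and, except for ATP6V1A and ULK2, in vector cells.

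The change after UV was lower in longer genes. Over the 44 genes the Spearman correlation of log2 fold change with the span from start to end was -0.72, -0.77 and -0.70 in the PIP4K2A, PIP4K2B and double knockdowns and -0.70 in vector cells. Over the 11072 protein-coding genes with a mean level at or above the lowest member's (4.41 scaled CPM) it was -0.21, -0.35 and -0.34 in the knockdowns and -0.21 in vector cells. Without the 11 hydrolases it was -0.68, -0.77 and -0.66 in the knockdowns and -0.64 in vector cells for the other 33 genes. The 16 genes under 20 kb had median fold changes of 0.51, 0.53 and 0.57 in the knockdowns and 0.36 in vector cells, and the 6 genes over 100 kb had medians of -0.11, 0.01 and -0.02 in the knockdowns and -0.05 in vector cells. NEU1 spans 5.25 kb, GABARAP 2.76 kb, ATG16L1 85.6 kb and UVRAG 328 kb. ATG5 and ATG7, at 280.4 and 285 kb, were not called relative to the median gene. The part of gene length in the differences between roles was not tested.

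**Figure D4:**
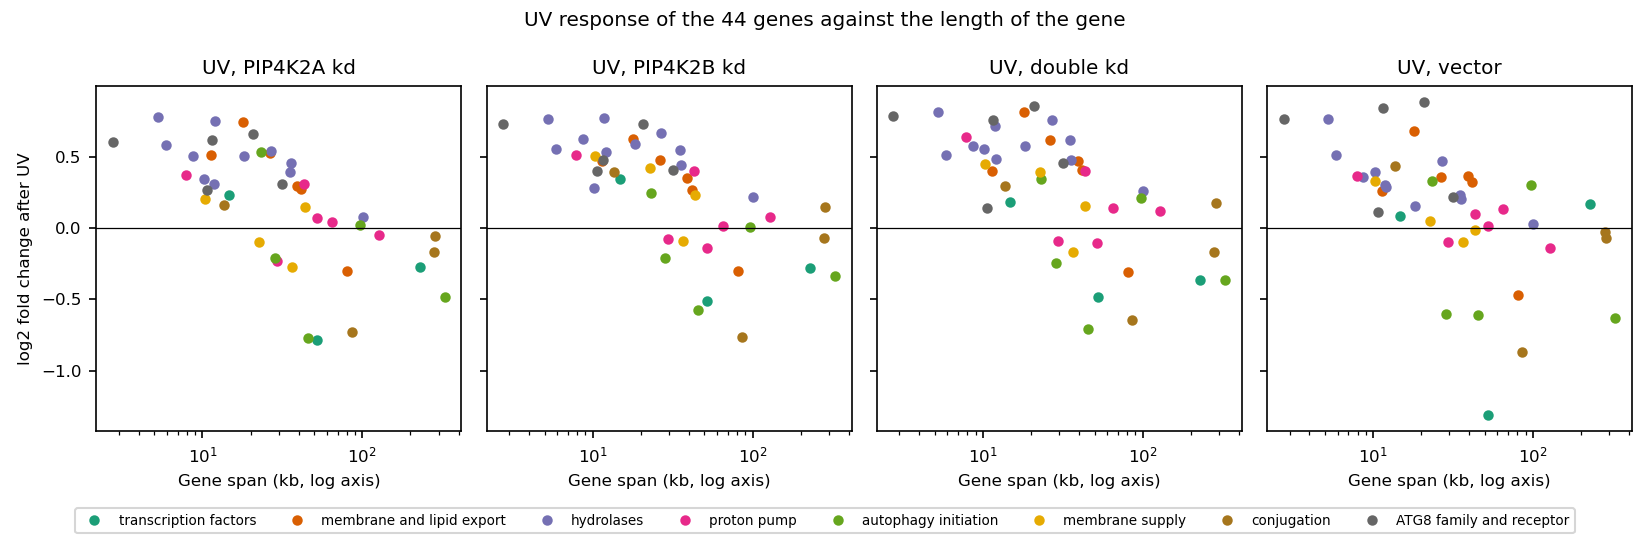
Log2 fold change after UV (vertical axis) against the span of the gene in kb (horizontal axis, log scale) for the 44 genes in the 3 knockdown lines and vector cells, with 1 point per gene coloured by role. Points fall from left to right, with rank correlations of -0.77 to -0.70, and the values are relative to the median gene; with ribosomal protein scaling no gene was called higher.

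Of the 8 genes with CACGTG in the promoter, 6, 7 and 6 rose after UV in the PIP4K2A, PIP4K2B and double knockdowns and 1 in vector cells, and ATG14 fell in all 4 lines. Of the 27 matched genes without it, 9, 13 and 13 rose in the knockdowns and 7 in vector cells, and 4 fell in each line. None of these rises was called with ribosomal protein scaling, and the 8 genes include the short hydrolase genes NEU1 and CTSA. Of all genes tested, 16.6, 17.5 and 19.1% rose in the knockdowns and 8.67% in vector cells. With the motif, median log2 fold changes were 0.51, 0.53 and 0.58 in the knockdowns and 0.28 in vector cells. Without it they were 0.20, 0.34 and 0.30, and 0.22 in vector cells. No member was called in a difference of UV responses from vector, and the part of the motif was not tested.

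Lines were then compared without UV, which asks what the knockdowns alone do. Relative to the untreated vector library, 3 genes were higher and 4 lower in the PIP4K2A knockdown, 4 were higher and 5 lower in that of PIP4K2B, and 5 and 3 in the double knockdown; 7.84, 10.2 and 6.2% of all genes were called in these comparisons. Higher genes made up 6.82, 9.09 and 11.4% of the 44, where 3.71, 5.26 and 3.24% of all genes were higher, and lower genes made up 9.09, 11.4 and 6.82%, where 4.13, 4.99 and 2.96% of all genes were lower. These 3 comparisons share 1 vector library. Ribosomal protein scaling moved the all-gene medians to 0.32, 0.16 and 0.26 and gave 9 higher and 1 lower, 4 and 3, and 12 and 0. Of all 22597 genes it called 2333 higher and 300 lower, 1300 and 541, and 1766 and 220. With only the 2 groups compared in the fit, 2 were higher and 2 lower in the PIP4K2A knockdown, 6 and 8 in that of PIP4K2B and 10 and 5 in the double knockdown. The PIP4K2A count of 7 became 2 without its untreated replicate 1, and 11 and 12 without UV-treated PIP4K2A replicates 1 and 2. The PIP4K2B count of 9 became 4 and 5 without its untreated replicates 1 and 2. The double knockdown count of 8 became 4 and 5 without its untreated replicates 1 and 2, 5 without any 1 UV-treated library of the PIP4K2B or double knockdown, and 17 and 16 without UV-treated PIP4K2A replicates 1 and 2. With all 16 libraries 1 gene, MITF, was called in each.

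MITF had the largest fold change of the 44 in each untreated comparison with vector. It measured 22.2 and 21.7 scaled CPM in the untreated PIP4K2A knockdown, 42.9 and 38.8 in that of PIP4K2B and 25.2 and 24.4 in the double knockdown, against 10.0 in the untreated vector library. All knockdown libraries lay above all vector libraries, and the PIP4K2B knockdown lay above the other 2 knockdowns. The log2 fold changes were 1.13 ± 0.13, 2.03 ± 0.13 and 1.31 ± 0.13 (edgeR adjusted p = 0.000238, 2.86e-06 and 8.49e-05), and 1.22, 2.12 and 1.41 with all 16 libraries. After UV, MITF measured 17.4 and 18.9 scaled CPM in the PIP4K2A, 31.7 and 35.7 in the PIP4K2B and 19.0 and 19.7 in the double knockdown, against 11.3 and 11.2 in vector cells. The fold changes there were 0.69 ± 0.10, 1.59 ± 0.10 and 0.78 ± 0.10 (edgeR adjusted p = 0.000494, 7.86e-07 and 0.000246). All 6 calls held with ribosomal protein scaling and without any single library that could be left out. The 1 untreated vector library could not be left out of the untreated comparisons. Over all 16 libraries the values after UV were 0.72, 1.60 and 0.79, and only that of the PIP4K2B knockdown was called (edgeR adjusted p = 0.134, 0.00236 and 0.0964).

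GABARAPL1 (chr12:10212458-10223130), another ATG8 gene, was higher in every knockdown library than in every vector library. It measured 21.0 and 18.0 scaled CPM in the untreated PIP4K2A, 20.9 and 17.7 in the PIP4K2B and 21.3 and 24.2 in the double knockdown, against 12.1 in untreated vector cells. After UV it measured 22.4 and 24.6, 25.2 and 25.9, and 25.4 and 24.7 in the same lines, against 13.2 and 13 in vector cells. The untreated fold changes were 0.69 ± 0.15, 0.67 ± 0.15 and 0.91 ± 0.15 (edgeR adjusted p = 0.0136, 0.0119 and 0.00326); the first was lost without untreated PIP4K2A replicate 1 and the second without untreated PIP4K2B replicate 1. The values after UV were 0.84, 0.96 and 0.93 (SE 0.12 each; edgeR adjusted p = 0.000378, 0.000119 and 0.000228), and held without any single library. When all 16 libraries were used the untreated values were 0.24, 0.23 and 0.48, those after UV were 0.87, 0.97 and 0.94, and none was called.

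NPC1 was lower in all knockdowns. It measured 50.5 and 53.7 scaled CPM in the untreated PIP4K2A, 53.4 and 56.4 in the PIP4K2B and 61.7 and 57.5 in the double knockdown, against 87.6 in the untreated vector library, and 40.8 to 48.5 in the UV-treated knockdowns against 61.6 and 65.0 in UV-treated vector cells. The untreated fold changes were -0.75 ± 0.10, -0.67 ± 0.10 and -0.56 ± 0.10 (edgeR adjusted p = 0.000635, 0.000888 and 0.00506), and those after UV were -0.58, -0.51 and -0.40 (SE 0.08 each). The call in the double knockdown after UV was lost without either of its UV-treated libraries or without UV-treated vector replicate 2, at an adjusted p up to 0.0678. With ribosomal protein scaling NPC1 was still lower, but called only in the PIP4K2B knockdown. With all 16 libraries the untreated values turned to 0.09, 0.17 and 0.30, those after UV were -0.55, -0.50 and -0.39, and none was called.

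**Figure D5:**
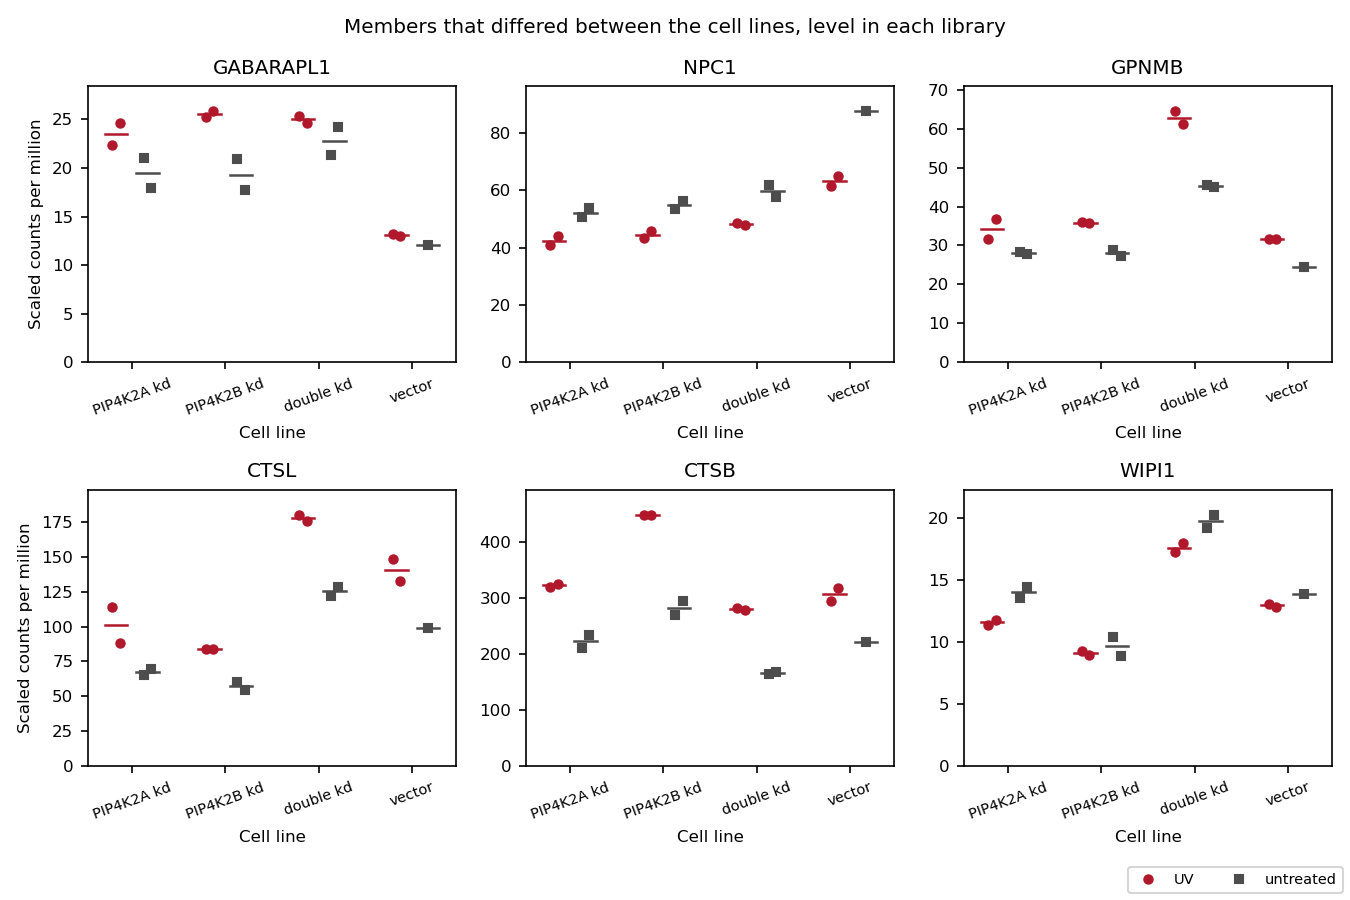
Scaled CPM in each of 15 libraries for 6 genes that differed between cell lines (horizontal axis; kd, knockdown), with UV-treated libraries as circles left of untreated ones as squares and bars at the group means. At each treatment, GABARAPL1 is higher and NPC1 lower in the knockdowns than in vector cells, GPNMB, CTSL and WIPI1 are highest in the double knockdown, and CTSB is highest in the PIP4K2B knockdown; NPC1 kept its call with ribosomal protein scaling in the PIP4K2B knockdown only.

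Other differences depended on the line. GPNMB (chr7:23235967-23275108) measured 45.5 and 45.1 scaled CPM in the untreated double knockdown, against 28.3 and 27.7 in the PIP4K2A knockdown, 28.8 and 27.4 in that of PIP4K2B and 24.6 in vector cells. After UV it measured 64.5 and 61.2 in the double knockdown, against 31.6 and 31.6 in vector cells. The double knockdown was higher than vector by 0.88 ± 0.11 untreated and 0.99 ± 0.09 after UV, and higher than each single knockdown by 0.69 ± 0.09 untreated (edgeR adjusted p = 0.000637, 1.47e-05, 0.000481 and 0.000213); all 4 calls held without any single library, and none was made with all 16. CTSL measured 122 and 129 scaled CPM in the untreated double knockdown, against 65.4 and 69.3 in the PIP4K2A and 60.0 and 54.7 in the PIP4K2B knockdown and 98.9 in vector cells. Its log2 fold change against vector was -0.79 ± 0.13 in the PIP4K2B knockdown (edgeR adjusted p = 0.00247), and it was higher in the double than in the PIP4K2A and PIP4K2B knockdowns by 0.90 ± 0.11 and 1.13 ± 0.11 (edgeR adjusted p = 0.000411 and 2.88e-05). The call in the PIP4K2A knockdown (-0.55 ± 0.13, edgeR adjusted p = 0.0241) was lost in 6 of 14 fits without 1 library (either of its untreated libraries, or any UV-treated library of the PIP4K2B or double knockdown) and under ribosomal protein scaling, and the value was 0.10 with all 16 libraries.

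CTSB had a different order, with 269 and 295 scaled CPM in untreated PIP4K2B knockdown cells and 165 and 167 in double knockdown cells, against 221 in vector cells. The PIP4K2B call against untreated vector was lost in 9 of 14 fits without 1 library and that of the double knockdown in 6 of 14. The double knockdown value against vector turned to 0.40 with all 16 libraries. The log2 fold change of the double against the PIP4K2B knockdown was -0.76 ± 0.08 (edgeR adjusted p = 5.53e-05), a call that held without any single library. After UV, CTSB was 447 and 449 scaled CPM in the PIP4K2B knockdown against 295 and 318 in vector cells (0.55 ± 0.08, edgeR adjusted p = 0.000542). WIPI1 measured 19.2 and 20.3 in the untreated double knockdown, against 10.4 and 8.90 in the PIP4K2B knockdown, 1.03 ± 0.10 higher (edgeR adjusted p = 3.07e-05). WIPI2 was lower than vector in the untreated PIP4K2A and PIP4K2B knockdowns, at -0.68 ± 0.13 and -0.56 ± 0.13 (-0.03 and 0.09 with all 16 libraries); the first call was lost without untreated PIP4K2A replicate 1 and the second without either untreated PIP4K2B replicate. ATG9A was lower in the same lines, at -0.48 ± 0.12 and -0.55 ± 0.12 (0.40 and 0.33 with all 16 libraries), and was called in neither with ribosomal protein scaling. Its PIP4K2A call was lost in 8 of 14 fits without 1 library (untreated PIP4K2A replicate 1, any double knockdown library, either UV-treated PIP4K2B library or UV-treated vector replicate 1), and its PIP4K2B call without untreated PIP4K2B replicate 1.

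After UV, 6 genes were higher and 5 lower in the PIP4K2A knockdown than in vector cells, 10 were higher and 4 lower in that of PIP4K2B, and 14 and 1 in the double knockdown, where 20.3, 19 and 15.4% of all genes were called. Higher genes made up 11.3, 10.7 and 8.5% and lower genes 9.01, 8.3 and 6.86% of all genes. These 3 comparisons share the 2 UV-treated vector libraries. Ribosomal protein scaling moved the all-gene medians to 0.24, -0.03 and 0.12 and gave 17 higher and 2 lower, 10 and 5, and 20 and 0. Of all 22597 genes it called 4902 higher and 830 lower, 1880 and 1498, and 2722 and 768. With TMM scaling 13.6, 22.7 and 31.8% of the 44 were higher in the PIP4K2A, PIP4K2B and double knockdowns, and the 1 lower gene in the double knockdown was NPC1. TFEB measured 5.06 and 5.11 scaled CPM there, against 2.33 and 2.25 in vector cells after UV (1.15 ± 0.18, edgeR adjusted p = 0.00109), and that call held without any single library. ATP6V1H, a regulatory subunit of the proton pump, was higher by 0.42 ± 0.11, 0.55 ± 0.11 and 0.65 ± 0.11; the first was lost without either UV-treated vector library or UV-treated PIP4K2A replicate 2, and the second without UV-treated PIP4K2B replicate 2. SQSTM1 measured 305 and 289.8 scaled CPM in the PIP4K2B knockdown after UV, against 160 and 175 in vector cells (0.83 ± 0.13, edgeR adjusted p = 0.00102). It was also called higher without UV in that line, at 218 and 231 scaled CPM against 144 in the untreated vector library. That untreated call was lost without either untreated PIP4K2B replicate. With only the 2 groups compared in the fit, 1 gene was higher and 0 lower in the PIP4K2A knockdown, a count of 1 in place of 11, and 24 were higher and 7 lower in the double knockdown, a count of 31 in place of 15. The PIP4K2A count of 11 became 7 and 6 without UV-treated vector replicates 1 and 2 and 17 without UV-treated PIP4K2A replicate 2. The PIP4K2B count of 14 became 9 and 8 without UV-treated vector replicates 1 and 2, and 9 and 6 without its own UV-treated replicates 1 and 2. The double knockdown count of 15 became 8 without UV-treated vector replicate 1 or either of its own UV-treated replicates, and 26 without either UV-treated PIP4K2A replicate.

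Whether the UV response itself differed between a knockdown and vector cells was tested directly, and no member passed. edgeR called 0 of the 44 in each of the 3 differences, and DESeq2 also 0. At an unadjusted p under 0.05 edgeR had 1, 4 and 5 members and DESeq2 1, 4 and 4 for the PIP4K2A, PIP4K2B and double knockdowns. Of all 22597 genes, edgeR had 1109, 1655 and 1209 at that unadjusted p. Over all genes edgeR called 0.00885, 0 and 0.00885%, with 0.00443% higher and 0.00443% lower in the PIP4K2A difference. TFEB fell less in the PIP4K2B and double knockdowns than in vector cells by 0.80 ± 0.28 and 0.83 ± 0.27 on the log2 scale, at edgeR adjusted p = 0.672 and 0.898. MITF differed by -0.44 ± 0.16, -0.45 ± 0.16 and -0.53 ± 0.16 in the PIP4K2A, PIP4K2B and double knockdowns, at edgeR adjusted p = 0.901, 0.672 and 0.898. CTSD and PSAP, also not called, had differences of 0.47 ± 0.17 and 0.32 ± 0.14 in the PIP4K2B knockdown. In the double knockdown theirs were 0.41 ± 0.17 and 0.38 ± 0.14. The median difference of the 44 was 0.06, 0.16 and 0.15 in the PIP4K2A, PIP4K2B and double knockdowns. With ribosomal protein scaling it was -0.02, -0.02 and 0.00. Without UV-treated PIP4K2A replicate 2, 3 members were called higher in the PIP4K2A difference. The larger number of UV calls in the knockdown lines is therefore not shown to be a larger response; the UV contrast of vector cells has 1 untreated library, and all 3 differences share it.

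Untreated double knockdown cells were also set against each single knockdown. Against the PIP4K2A knockdown, 3 genes were higher and 3 lower, where 7.1% of all genes were called (3.53% higher and 3.57% lower), and against the PIP4K2B knockdown 5 were higher and 4 lower, where 15.4% were (7.32% higher and 8.06% lower). With ribosomal protein scaling the splits were 2 and 1, and 8 and 2, where those of all 22597 genes were 504 and 545, and 2076 and 901. Beside CTSL, GPNMB, CTSB and WIPI1, TFEB was higher than in the PIP4K2B knockdown by 0.91 ± 0.17 (edgeR adjusted p = 0.00276) and MITF was lower, at -0.72 ± 0.10 (edgeR adjusted p = 0.00026), and both calls held without any single library. With only the 2 groups compared in the fit, 10 were higher and 7 lower against the PIP4K2B knockdown. The count of 6 became 2 or 3 without untreated PIP4K2A replicate 1 or either untreated double knockdown replicate, and 10 and 11 without UV-treated PIP4K2A replicates 1 and 2. The count of 9 became 19 and 18 without the last 2 libraries.

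Isoform use was read from the abundance-weighted transcript length that the tables give per gene. UV changed it in 0 of the 44 genes in the PIP4K2B and double knockdowns and in vector cells by limma at an adjusted p under 0.05, and in 2 in the PIP4K2A knockdown, where 2.24% of 11542 genes changed. In the other 3 responses 1.51, 2.44 and 0.78% of genes changed, and 3 members in each had an unadjusted p under 0.05, against 10 in the PIP4K2A knockdown. TFEB had weighted lengths of 2393 and 2351 bases after UV against 2096 and 2166 untreated (0.15 ± 0.03 log2, limma adjusted p = 0.0404), and CTSZ had 1226 and 1366 against 1635 and 1646 (-0.34 ± 0.06, limma adjusted p = 0.0295). The count of 2 became 0 or 1 without any of 11 libraries and 6 without UV-treated PIP4K2A replicate 2.

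A further 6 lists hold 149 other genes of the pathway, of which 145 were tested. After UV, 51, 57 and 65 of these rose and 20, 23 and 18 fell in the PIP4K2A, PIP4K2B and double knockdowns, and 28 rose and 16 fell in vector cells; the background shares are those given above, and the rises are relative to the median gene, with none called higher under ribosomal protein scaling. Of 35 other lysosomal hydrolases, 22, 26 and 26 rose in the knockdowns and 13 in vector cells, and at most 1 fell. PPT1, which removes fatty acids from proteins, rose by 0.73 ± 0.12 and the cathepsin CTSV by 0.69 ± 0.20 in vector cells. Of 16 other proton pump subunits tested, 7, 8 and 11 rose in the knockdowns and 3 in vector cells, led there by ATP6V1F (0.77 ± 0.17) and ATP6V1G1 (0.60 ± 0.15). Of 28 other genes of the autophagy machinery, 6 rose in each knockdown and 1 in vector cells (WDR45, a phosphoinositide reader, at 0.55 ± 0.11), while 8, 9 and 8 fell in the knockdowns and 8 in vector cells. Among these, NRBF2, a subunit of the ATG14 complex, fell by 1.13 ± 0.12 and RUBCN, an inhibitor of the UVRAG complex, fell by 0.95 ± 0.15 in vector cells.

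The regulators of mTORC1 were split: of 27, UV raised 6 and lowered 8 in the PIP4K2A, 8 and 8 in the PIP4K2B and 10 and 8 in the double knockdown, and 4 and 5 in vector cells. RRAGA, a small GTPase that brings mTORC1 to the lysosome, rose by 0.67 ± 0.13, and LAMTOR5, part of its anchor, by 0.61 ± 0.15 in vector cells relative to the median gene. SESN2 and SESN1, which restrain mTORC1 when amino acids are scarce, fell by 1.37 ± 0.13 and fell by 1.16 ± 0.17 in vector cells. Of 26 other genes of the lysosomal membrane and of sorting, UV raised 6, 7 and 8 and lowered 4, 4 and 2 in the knockdowns, and raised 5 and lowered 3 in vector cells. LAPTM4B (0.67 ± 0.20) and CD63 (0.53 ± 0.14) rose most in vector cells, and PIP4P1, a phosphatase that removes a phosphate from a phosphoinositide of late endosomes, fell by 0.92 ± 0.12 and the chloride transporter CLCN7 fell by 0.47 ± 0.13. Of 13 other autophagy receptors, UV raised 4, 2 and 4 in the knockdowns and 2 in vector cells, and lowered none. RETREG1, a receptor for the endoplasmic reticulum, rose by 1.15 ± 0.30 and BNIP3L, one for mitochondria, by 0.60 ± 0.13 in vector cells. With ribosomal protein scaling RETREG1 lay at 0.43 in vector cells, where it was not called. It then lay at -0.52, -0.58 and -0.74 in the PIP4K2A, PIP4K2B and double knockdowns, and only the last was called lower.

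Some counts are less certain than others. CTSA, CTSD, CTSZ, HEXA, BECN1, ATG9A, WIPI1, ATG7 and SQSTM1 had counts that were not whole in all 15 libraries, and NPC1 and GABARAP in 14, MAP1LC3B in 13 and ATG14 in 9. RSEM splits a read that matches several genes, which gives such counts. The levels of MAP1LC3B and GABARAP are therefore uncertain by the reads shared with other genes, while GABARAPL1 and GABARAPL2 had whole counts in all 15 libraries. Whether reads were counted by strand is not given in the sources used here, so antisense partners could have been counted with the genes they overlap. Such partners overlap MITF, UVRAG, ATG5 and ATG7. They also overlap TFEB, GABARAPL1, GABARAPL2, NPC1, NPC2, SQSTM1, WIPI1, CTSA and MAP1LC3B, among others.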

How the data were processed

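Ribosomal RNA-depleted, directional total RNA libraries were sequenced as 16 U2OS samples in 8 groups of 2. The authors deposited, per the file headers, 1 RSEM table per library with expected counts, TPM and an abundance-weighted transcript length in bases for 60666 genes. STAR, SAMtools, RSEM and GRCh38 are named in the submitters' processing notes; for their versions, the annotation and any strand setting, the sources used here give nothing. Libraries held 28002912 to 39873512 counts, except 1 set aside. After rounding, the expected counts were fitted in edgeR 4.0.16 (quasi-likelihood, TMM, filterByExpr with a minimum count of 10, 8 groups, 15 libraries, no covariate), with Benjamini-Hochberg adjustment over 22597 genes. Log2 weighted length was tested with limma 3.58.1 in 11542 genes with a mean count of at least 100. Alternatives used DESeq2 1.42.0, other scalings, filters and sample sets. Both tests were checked on simulated data. Gene positions come from GENCODE release 29 on GRCh38. Genes given with values were up to 5 called rises and 5 called falls per comparison, up to 4 for differences of responses and between knockdowns, and the 3 transcription factors; other members were summarised by role, and those described beyond this were chosen after their values were seen. The members and lists were chosen with earlier results of these data known.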

Additional observations from a re-analysis of the deposited data

Results flagged for a closer look

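The library labelled vector untreated replicate 1, which no comparison of the main results uses, held 11 of the 44 genes above the highest CPM of the other 15 libraries, 25 below the lowest and 8 inside the range. ATG12 stood at 133 CPM against 29.2 to 41.3 in the other 15, ULK2 at 44.6 against 3.91 to 7.83, and GLA at 75.9 against 29.4 to 49.2. NPC2 stood at 14.1 CPM against 79.3 to 157, GLB1 at 3.91 (5 counts) against 38.5 to 54.1, and GAA at 3.13 (4 counts) against 42.4 to 65.9. The 44 genes summed to 2004 CPM there, against 4015 to 4787 in the other 15. The cause was not tested.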

How the results depend on the processing

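Of 107 called pairs of a gene and a comparison given with values, the same direction and call held in 107 with a filter of 1 CPM in 2 libraries, in 103 each with DESeq2 and RLE size factors, in 92 without a filter, in 86 with only the groups compared and in 94 with a replicate block. With ribosomal protein scaling 69 held, 21 lost the call and 17 changed sign, and with all 16 libraries 7 held, 91 lost the call and 9 changed sign; the cause was not tested. Without 1 library, the fits kept 88 to 106 of 107, and leaving out vector untreated replicate 2 kept 73 of the 73 that remain, since the other comparisons then give no value.

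Counts of the 44 genes called moved as follows. With all 16 libraries the UV counts were 0 in the PIP4K2A, PIP4K2B and double knockdowns (24, 29 and 29 over 15 libraries) and 3 in vector cells (15). The knockdowns against vector gave 1, 1 and 1 untreated (7, 9 and 8) and 0, 1 and 0 after UV (11, 14 and 15), and the double against the single knockdowns gave 0 and 0 (6 and 9). With only the groups compared, the UV counts were 4 in the PIP4K2A knockdown and 24 in vector cells, those against vector were 4, 14 and 15 untreated and 1 and 31 after UV in the PIP4K2A and double knockdowns, and that of the double against the PIP4K2B knockdown was 17. With ribosomal protein scaling the counts were 29 for UV in vector cells, 19 for the PIP4K2A knockdown after UV and 3 for the double against the PIP4K2A knockdown. The weighted-length count of 2 became 1 at a mean count of at least 500 and 0 with all 16 libraries.

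Leaving out 1 library gave UV counts of 16 to 28, 17 to 33 and 18 to 33 in the PIP4K2A, PIP4K2B and double knockdowns and 12 to 23 in vector cells. It gave 2 to 12, 4 to 12 and 4 to 17 for the untreated knockdowns against vector, 6 to 17, 6 to 19 and 8 to 26 after UV, 2 to 11 and 6 to 19 for the double against the PIP4K2A and PIP4K2B knockdowns, 0 to 3 for the PIP4K2A difference of responses, and 0 to 6 for weighted length in the PIP4K2A knockdown.

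Replicate numbers did not pair the libraries: over 21 pairs of groups the correlation of deviations ran from -0.441 to 0.606 (median -0.0135), over 0.1 in 7 pairs and under -0.1 in 7. With the number as a replicate block, 5 genes in place of 8 were called in the untreated double knockdown against vector, and 0 in place of 2 changed weighted length in the PIP4K2A knockdown.

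Signs changed after UV with ribosomal protein scaling for NEU1 (-0.029, -0.14 and -0.060 in the PIP4K2A, PIP4K2B and double knockdowns), MAP1LC3B (-0.13, -0.18 and -0.022), TFE3 (-0.58, -0.56 and -0.69, and -0.64 in vector cells), GABARAP (-0.18 and -0.094 in the PIP4K2B and double knockdowns) and GABARAPL2 (-0.17 and -0.12 in the PIP4K2A and double knockdowns). NPC2 was -0.060 and -0.057 in the PIP4K2A and double knockdowns and -0.043 in vector cells, MITF -0.56 in vector cells, CTSZ -0.084 in the PIP4K2A knockdown, and CTSD -0.14 and CTSB -0.24 in the PIP4K2B knockdown. With all 16 libraries signs changed against untreated vector for NPC1 (0.090, 0.17 and 0.30 in the PIP4K2A, PIP4K2B and double knockdowns), ATG9A (0.40 and 0.33 in the single knockdowns), CTSL (0.10 in the PIP4K2A knockdown), WIPI2 (0.091 in the PIP4K2B knockdown), and ATG7 and CTSB (0.17 and 0.40 in the double knockdown). Depth limits TFEB, with as few as 61 counts in a library.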
